A study of Rattus norvegicus with 8 samples.

Results

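Respiratory complex I (NADH:ubiquinone oxidoreductase) was examined through the genes whose symbol begins with Nduf in the array annotation. The arrays carried 43 such genes on 56 of 30367 probes that were not controls. Of these genes, 39 were counted as subunits and 4, named Ndufaf, encode assembly factors. The 39 include Ndufa4, now assigned to complex IV, and the paralogues Ndufa10l1 and Ndufb4l1. Of the 43 genes, 42 had a probe well above background, in all 8 samples, and were tested. The probe of Ndufaf2, an assembly factor, was not well above background in any sample.

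RNA came from whole liver of Wistar rats aged 21 days. The 4 control animals were born to dams on standard food and the 4 methyl donor deficient animals to dams on food lacking vitamin B12 and folate. Dams received their food from 1 month before pregnancy, and it was kept up until weaning. The control group held 1 male and 3 females and the deficient group 2 males and 2 females. The animals were labelled with Cy5 or Cy3 and hybridised to 4 two-colour arrays, each holding 1 control and 1 deficient animal. Array 1 held control 1 and deficient 3, array 2 held control 3 and deficient 1, array 3 held control 2 and deficient 4, and array 4 held control 4 and deficient 2. Animal numbers only name the animals. The labels tie no animal to a dam or litter, so the tests weigh differences against the variation among the sampled animals alone, and litter and diet cannot be told apart.

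Complex I is the entry point of electrons from NADH into the mitochondrial respiratory chain. Its matrix arm carries a flavin and a chain of iron-sulfur clusters that pass electrons to ubiquinone, and its membrane arm pumps protons. Core subunits do the chemistry and are shared with bacteria, accessory subunits surround them, and assembly factors help to build the complex without staying in it. Most subunits are encoded in the nucleus and the ND subunits of the membrane arm in mitochondrial DNA. Vitamin B12 and folate supply methyl groups through the methionine cycle, and liver is a main site of this metabolism.

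The probes of 3 complex I transcripts are shown because the calls below rest on them, as printed in the deposited files, 5′ to 3′, with no bases marked. Positions are those of the file headers, in build rn4. The Ndufs4 probe lay at chr2:45840188-45840247 on the minus strand, and the probes of the mitochondrially encoded ND1 and ND2 lay at chrM:3626-3685 and chrM:4448-4507.
Ndufs4: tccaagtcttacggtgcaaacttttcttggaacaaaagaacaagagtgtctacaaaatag
ND1: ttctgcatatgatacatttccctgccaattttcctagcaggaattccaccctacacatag
ND2: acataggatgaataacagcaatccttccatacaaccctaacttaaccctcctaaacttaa

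The Ndufa2 probe, at chr18:29443749-29443808, had a near copy on the arrays. A second probe, at chr1:170580255-170580314, also on the minus strand, was described in the files as complex I subunit 2 but carried no Nduf name. The pair shared an overlap of 59 bases with 6 differing bases, marked in capitals, and an identical run of 33 bases. Signals of the 2 probes may therefore not be separate.
Ndufa2: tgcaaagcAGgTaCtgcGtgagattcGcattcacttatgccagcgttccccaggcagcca
near copy: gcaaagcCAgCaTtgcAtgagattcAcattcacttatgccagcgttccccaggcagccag

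Few Nduf transcripts differed between the diets. By limma's moderated test with Benjamini-Hochberg adjustment over all 14931 genes, 3 of the 42 Nduf genes were called higher in deficient livers at an adjusted p of 0.05 and 0 were called lower. These were Ndufs4, Ndufa5 and Ndufa2, accessory subunits of the matrix arm, at 1.27, 1.25 and 1.24 times the control level. Over all genes, 4.53% were called higher and 6.58% lower (11.1% in either direction). The 7.14% of Nduf genes called higher were near the share over all genes, and no Nduf gene was among those called lower. At an unadjusted p of 0.05, 9 of the 42 Nduf genes were higher and 1, Ndufa8, was lower. Of all 14931 genes, 1917 were higher and 2210 lower at that p. Differences from here on are log2 values, deficient minus control, with their standard errors (n = 4 animals a group), where 1 stands for a factor of 2. The median difference of the 42 Nduf genes was 0.10, against 0.0095 over all genes, with 29 above zero and 13 below. Above zero were 69.0% of the Nduf genes and 51.8% of all genes. The quartiles over all genes were -0.14 and 0.14, and the Nduf median lay between them. The lowest Nduf difference was -0.35 and the highest 0.35.

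**Figure D1:**
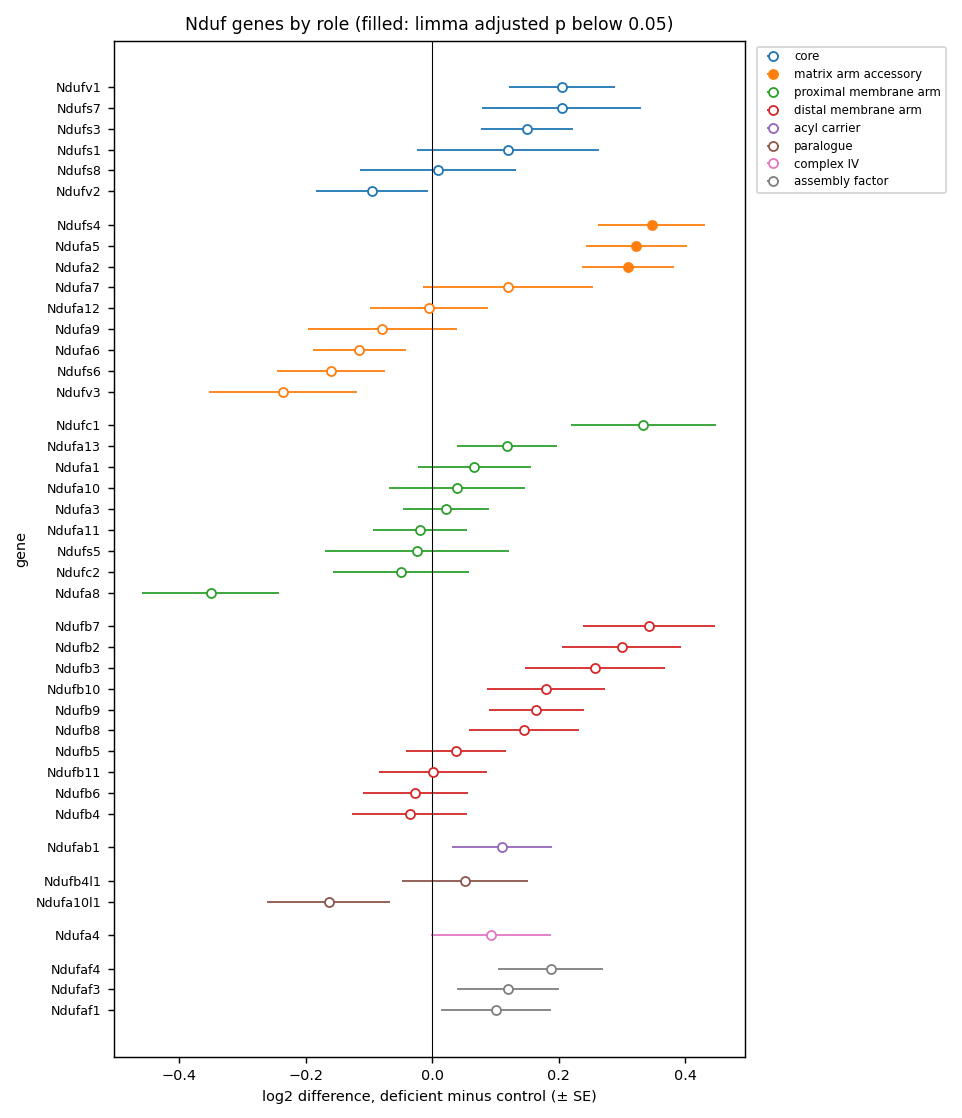
Difference in log2 normalized intensity between deficient and control livers (x axis, ± SE, 4 animals a group) for 41 of the 42 Nduf genes tested, grouped by role. Filled points are the 3 genes past the adjusted p threshold, all accessory subunits of the matrix arm, and open points are the others, which lie between -0.35 and 0.34.

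The 3 calls are described with the level in each animal, a log2 normalized intensity that can be compared between animals but not between genes. Ndufs4, which encodes an accessory subunit needed for a stable and active complex, had levels of 13.12, 13.01, 13.08 and 13.12 in control animals 1 to 4 and 13.70, 13.43, 13.27 and 13.31 in deficient animals 1 to 4. The groups did not overlap, and deficient 1 was the highest. The difference was 0.35 ± 0.09 (adjusted p = 0.0368), and within arrays 1 to 4 it was 0.15, 0.62, 0.30 and 0.32. A second Ndufs4 probe was not well above background in any sample. Ndufa5, an accessory subunit of the matrix arm, had levels of 14.73, 14.69, 14.53 and 14.60 in control animals 1 to 4 and 15.26, 15.03, 14.74 and 14.81 in deficient animals 1 to 4. The groups did not overlap, although control 1 and deficient 3, which shared array 1, were nearly level. Its difference was 0.32 ± 0.08 (adjusted p = 0.0378), with 0.01, 0.73, 0.13 and 0.43 within arrays 1 to 4. Ndufa2, a small accessory subunit of the same arm, had levels of 13.35, 13.11, 13.11 and 13.002 in control animals 1 to 4 and 13.58, 13.52, 13.39 and 13.33 in deficient animals 1 to 4. Control 1 lay above deficient 4, so the groups overlapped. The difference was 0.31 ± 0.07 (adjusted p = 0.0321), and within arrays 1 to 4 it was 0.04, 0.47, 0.22 and 0.51. The near-copy probe gave 0.36 ± 0.08 (adjusted p = 0.0337) and was also called higher. Over all genes the groups did not overlap for 11.4%, and for 2 of the 42 Nduf genes they did not.

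These 3 calls were not stable to the choice of animals or model. Over 27 alternative settings, all of which kept the direction of each gene, Ndufa2 and Ndufs4 were each called in 11 and Ndufa5 in 9. With an animal or an array left out, all 3 were called without deficient 2 and without array 4, Ndufa2 also without deficient 1 and Ndufs4 also without deficient 3. No Nduf gene was called higher without control 1, 2, 3 or 4 or without deficient 4, although 2 were called without deficient 1, 3 without deficient 3 and 7 without deficient 2. Without array 1, 2 or 3 the count was 0, and without array 4 it was 6. The count was also 0 with sex as a term and with array as a fixed block, where the adjusted p was 0.12 for Ndufs4, 0.133 for Ndufa5 and 0.121 for Ndufa2. Over the 27 settings the differences ranged from 0.27 to 0.42 for Ndufs4, from 0.25 to 0.40 for Ndufa5 and from 0.26 to 0.37 for Ndufa2, and the adjusted p reached 0.268, 0.281 and 0.265.

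**Figure D2:**
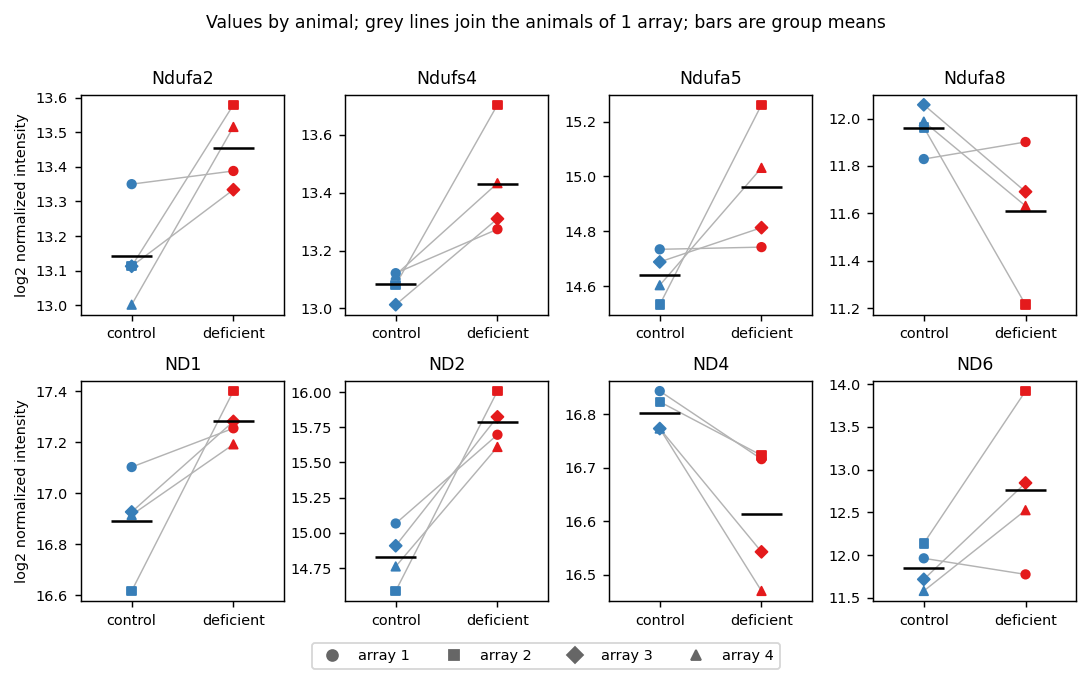
Log2 normalized intensity (y axis, separate scale in each panel) in each of the 4 control and 4 deficient animals for 4 Nduf genes and 4 mitochondrially encoded subunits, with symbols for the array and grey lines joining the animals of an array. Ndufs4, Ndufa5, ND1 and ND2 have no overlap between groups and are higher in deficient animals, ND4 has no overlap and is lower, and for ND6 and Ndufa8 array 1 runs against the other arrays.

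The 7 core subunits encoded in the nucleus, which bind the flavin and the iron-sulfur clusters or form the ubiquinone site, had a median difference of 0.15, with 6 above zero. None was called by limma at the adjusted p. Ndufv1, which binds the flavin and NADH, had levels of 14.39, 14.38, 14.56 and 14.62 in control animals 1 to 4 and 14.85, 14.57, 14.61 and 14.74 in deficient animals 1 to 4, with an overlap between groups and a difference of 0.21 ± 0.08 (adjusted p = 0.154). Ndufs7, which holds the last iron-sulfur cluster before ubiquinone, had levels of 13.71, 13.79, 13.52 and 13.68 in control animals 1 to 4 and 14.32, 13.70, 13.85 and 13.65 in deficient animals 1 to 4. Deficient 1 stood above the other 7 animals, and the difference was 0.20 ± 0.13 (adjusted p = 0.332). Ndufs3, a core subunit of the matrix arm, had levels of 13.03, 13.19, 13.26 and 13.46 in control animals 1 to 4 and 13.27, 13.36, 13.45 and 13.46 in deficient animals 1 to 4, with a difference of 0.15 ± 0.07 (adjusted p = 0.226). Control 4 was above 3 of the deficient animals.

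Ndufs1, which carries several iron-sulfur clusters, had levels of 12.17, 12.78, 12.78 and 12.85 in control animals 1 to 4 and 12.70, 13.14, 12.33 and 12.90 in deficient animals 1 to 4. Control 1 and deficient 3, both on array 1, were the lowest of their groups, and the difference was 0.12 ± 0.14 (adjusted p = 0.632). Ndufv2, an iron-sulfur subunit next to Ndufv1, had levels of 14.29, 14.51, 14.52 and 14.80 in control animals 1 to 4 and 14.26, 14.57, 14.47 and 14.44 in deficient animals 1 to 4. It was the only core subunit below zero, at -0.096 ± 0.089 (adjusted p = 0.528). Ndufs8, an iron-sulfur subunit near the membrane arm, had levels of 11.10, 11.54, 11.37 and 11.81 in control animals 1 to 4 and 11.04, 11.64, 11.61 and 11.56 in deficient animals 1 to 4 and a difference of 0.0085 ± 0.12 (adjusted p = 0.972). Control 1 and deficient 1 were the 2 lowest animals.

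Of the 9 accessory subunits of the matrix arm, the 3 called genes were above 0.30 and the other 6 lay between -0.24 and 0.12, so that the median was -0.0048. Ndufv3, a small subunit beside the flavin site, was the lowest of these, with levels of 15.17, 15.27, 15.30 and 15.29 in control animals 1 to 4 and 15.20, 15.05, 15.21 and 14.62 in deficient animals 1 to 4. Deficient 4 stood well below the other 7 animals. The difference was -0.24 ± 0.12 (adjusted p = 0.234), and another of its 3 probes gave 0.12, the opposite sign. Ndufs6, which lies near an iron-sulfur cluster, was at -0.16, Ndufa6 at -0.12, Ndufa9 at -0.079, Ndufa12 at -0.0048 and Ndufa7 at 0.12, and none of these 5 was called.

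The nuclear accessory subunits of the membrane arm gave no call, by limma, in either direction. The 10 accessory subunits of its distal end that had a probe had a median of 0.15, with 8 above zero. At an unadjusted p of 0.05, 3 of them were higher, against 1917 of 14931 over all genes. Ndufb7, a subunit of the intermembrane space face, had levels of 13.73, 13.85, 13.72 and 13.76 in control animals 1 to 4 and 14.51, 14.07, 13.80 and 14.06 in deficient animals 1 to 4. Deficient 3 lay within the control range and the other deficient animals above it. The difference was 0.34 ± 0.10 (adjusted p = 0.0712). Ndufb2 at 0.30 and Ndufb3 at 0.26 were next, and the lowest of the 10 was Ndufb4 at -0.036, whose second probe gave 0.071.

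The 9 accessory subunits of the proximal end had a median of 0.022, with Ndufc1 and Ndufa8 at its extremes. Ndufc1, a single-pass membrane subunit, had levels of 12.98, 13.06, 13.02 and 13.003 in control animals 1 to 4 and 13.73, 13.52, 12.82 and 13.32 in deficient animals 1 to 4. Deficient 3 was the lowest of the 8 animals and the other 3 deficient animals were above all controls. The difference was 0.33 ± 0.11 (adjusted p = 0.0992), with -0.16, 0.71, 0.26 and 0.52 within arrays 1 to 4. Ndufa8, a subunit held by disulfide bonds on the intermembrane space face, had levels of 11.83, 12.06, 11.96 and 11.99 in control animals 1 to 4 and 11.21, 11.63, 11.90 and 11.69 in deficient animals 1 to 4. Deficient 3 lay above control 1, on the same array, and the other 3 deficient animals lay below all controls. Its difference was -0.35 ± 0.11 (adjusted p = 0.0734). The other 7 lay between -0.050 and 0.12.

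Of the remaining subunit genes, Ndufab1, the mitochondrial acyl carrier protein, was at 0.11 and was not called. Ndufa4, now assigned to complex IV, was at 0.093. The paralogue Ndufa10l1 had levels of 13.97, 14.12, 14.31 and 14.55 in control animals 1 to 4 and 13.69, 14.21, 14.12 and 14.28 in deficient animals 1 to 4 and a difference of -0.16 ± 0.10 (adjusted p = 0.314), with overlap between groups. Its probes and those of Ndufa10, at 0.039, are annotated with shared transcripts, and Ndufb4l1, at 0.051, is a paralogue of Ndufb4, so the members of these pairs may not be measured separately. Among the 8 Nduf genes with several kept probes, 6 had all of them in 1 direction, and among these 8 the exceptions were Ndufv3 and Ndufb4.

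Assembly factors were compared with subunits. Of the 4 genes with an Ndufaf name in the array annotation, 3 were tested and none was called by limma, with 0 at an unadjusted p of 0.05. Ndufaf1, which helps to build the membrane arm, had levels of 8.90, 9.02, 9.06 and 9.12 in control animals 1 to 4 and 8.92, 9.28, 9.02 and 9.27 in deficient animals 1 to 4 and a difference of 0.10 ± 0.09 (adjusted p = 0.497). Ndufaf3, which acts early in assembly together with Ndufaf4, had levels of 11.52, 11.40, 11.49 and 11.29 in control animals 1 to 4 and 11.68, 11.74, 11.37 and 11.38 in deficient animals 1 to 4 and a difference of 0.12 ± 0.08 (adjusted p = 0.373). Ndufaf4 had levels of 9.69, 9.79, 9.66 and 9.86 in control animals 1 to 4 and 9.87, 10.20, 9.77 and 9.91 in deficient animals 1 to 4. Its difference was 0.19 ± 0.08 (adjusted p = 0.184), and its 4 kept probes ran from 0.062 to 0.19. For all 3 the groups overlapped.

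A further 3 assembly factors stood on the arrays under older names and were matched through RefSeq. Ndufaf7, a protein arginine methyltransferase, had levels of 7.70, 8.20, 8.15 and 8.50 in control animals 1 to 4 and 7.17, 8.08, 7.95 and 8.22 in deficient animals 1 to 4. Deficient 1 was the lowest animal, and the difference was -0.28 ± 0.15 (adjusted p = 0.267), with 0.25, -0.98, 0.02 and -0.41 within arrays 1 to 4, which differ in sign. A second Ndufaf7 probe gave 0.10, the opposite sign. Ndufaf5, which hydroxylates an arginine of Ndufs7, had levels of 10.34, 10.40, 10.50 and 10.51 in control animals 1 to 4 and 10.44, 10.47, 10.33 and 10.69 in deficient animals 1 to 4 and a difference of 0.045 ± 0.081 (adjusted p = 0.758). Ndufaf8, a partner of Ndufaf5, had levels of 12.90, 12.67, 12.82 and 12.61 in control animals 1 to 4 and 12.83, 12.72, 12.68 and 12.62 in deficient animals 1 to 4 and a difference of -0.037 ± 0.076 (adjusted p = 0.787).

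The genes counted as subunits (39, Ndufa4 and the paralogues among them) had a median difference of 0.067, with 26 above zero. The 3 Ndufaf genes had a median of 0.12. Within arrays 1 to 4 the medians were 0.061, 0.12, 0.045 and 0.048 for the subunits and 0.080, 0.19, 0.12 and 0.34 for the 3 factors. With the 3 renamed factors added, the 6 assembly factors had a median of 0.073, and within arrays of 0.035, -0.029, 0.070 and 0.13, below the subunits on arrays 1 and 2 and above them on arrays 3 and 4. The medians of the 6 factors (0.073) and of the subunits (0.067) were thus nearly level. The order within arrays 1 and 2 depended on which factors were counted. The difference between the classes was not tested. The 10 measured assembly factors of other names, such as Acad9, Ecsit and Timmdc1, had a median of 0.014, with 5 above zero, and none was called by limma or passed an unadjusted p of 0.05.

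**Figure D3:**
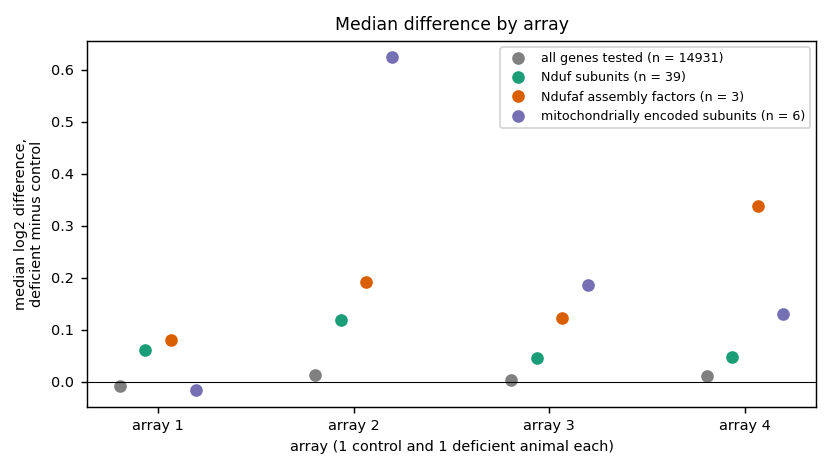
Median log2 difference within each of the 4 arrays (x axis; 1 control and 1 deficient animal each) for all genes tested and for 3 classes of complex I gene. The medians of the Nduf subunits lie between 0.045 and 0.12, those of the 3 Ndufaf genes between 0.080 and 0.34, and the median of the mitochondrially encoded subunits runs from -0.016 on array 1 to 0.62 on array 2.

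The mitochondrially encoded subunits are not Nduf genes by name and were found by their description in the files, 1 probe each, after the data were seen. Of the 6 with a probe, 2 were called higher in deficient livers, against 4.53% over all genes. ND2, a proton-pumping subunit, had levels of 15.07, 14.91, 14.59 and 14.76 in control animals 1 to 4 and 16.01, 15.61, 15.70 and 15.82 in deficient animals 1 to 4. The groups did not overlap, and the difference was 0.95 ± 0.11 (adjusted p = 0.00245), or 1.94 times the control level, with 0.63, 1.42, 0.91 and 0.85 within arrays 1 to 4. ND2 was called in all 27 alternative settings, with a difference from 0.81 to 1.095. ND1, which lies next to the ubiquinone site, had levels of 17.10, 16.93, 16.62 and 16.91 in control animals 1 to 4 and 17.40, 17.19, 17.25 and 17.28 in deficient animals 1 to 4. Control 3 was the lowest, the groups did not overlap, and the difference was 0.39 ± 0.10 (adjusted p = 0.0363). ND1 was called in 12 of the 27 settings, and of the 12 that left out an animal or an array in 3 (without control 4, deficient 2 or array 4). The adjusted p was highest, at 0.292, without array 3. With array as a fixed block ND2 was called (adjusted p = 0.0317) and ND1 was not (0.133).

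ND6, encoded on the other strand of mitochondrial DNA, had levels of 11.96, 11.72, 12.14 and 11.58 in control animals 1 to 4 and 13.92, 12.53, 11.77 and 12.84 in deficient animals 1 to 4. Deficient 3 lay within the control range, the other 3 deficient animals lay above it, and the difference of 0.92 ± 0.28 missed the threshold (adjusted p = 0.0685). ND4, a proton-pumping subunit, had levels of 16.84, 16.77, 16.82 and 16.77 in control animals 1 to 4 and 16.72, 16.47, 16.72 and 16.54 in deficient animals 1 to 4. Every deficient animal lay below every control, and the difference was -0.19 ± 0.08 (adjusted p = 0.146), although it was 0.089 in the deposited normalized values. ND5, at -0.053 ± 0.079, and ND4L, at 0.054 ± 0.13, had overlapping groups.

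Of the 6 other transcripts of the mitochondrial genome with a probe, also found after the data were seen, 2 were called lower and 0 higher. Over all genes the shares were 6.58% and 4.53%. CYTB, the mitochondrially encoded subunit of complex III, had levels of 17.05, 17.03, 17.30 and 17.27 in control animals 1 to 4 and 16.70, 16.45, 16.74 and 16.58 in deficient animals 1 to 4. The groups did not overlap, and the difference was -0.55 ± 0.08 (adjusted p = 0.0052), or 1.46-fold lower. It was called in 24 of 27 settings. Among those that missed the threshold were the fit without array 3 (adjusted p = 0.0749) and quantile normalization over all channels (0.0583). Over the 27 settings the difference of CYTB ran from -0.62 to -0.25, and its adjusted p reached 0.157. COX3, a subunit of complex IV, had levels of 16.37, 16.29, 16.21 and 16.53 in control animals 1 to 4 and 15.34, 15.59, 16.27 and 15.46 in deficient animals 1 to 4. Deficient 3 lay among the controls and the other deficient animals below them. The difference was -0.69 ± 0.14 (adjusted p = 0.0196), and it was called in 15 of 27 settings, among them 5 of the 12 that left out an animal or an array (without deficient 1, 2 or 3, array 1 or array 4). With array as a fixed block CYTB was called (adjusted p = 0.0447) and COX3 was not (0.066). COX1, COX2, ATP6 and ATP8 lay between -0.22 and 0.23 and were not called. In the order of the genome the differences were 0.39 for ND1, 0.95 for ND2, -0.17 for COX1, -0.22 for COX2, 0.23 for ATP8, -0.092 for ATP6, -0.69 for COX3, 0.054 for ND4L, -0.19 for ND4, -0.053 for ND5, 0.92 for ND6 and -0.55 for CYTB. The probes of mitochondrial transcripts thus did not move as 1 block, with 2 higher, 2 lower and 8 not called. With 1 probe for each, behaviour of the probe and of the transcript cannot be told apart.

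**Figure D4:**
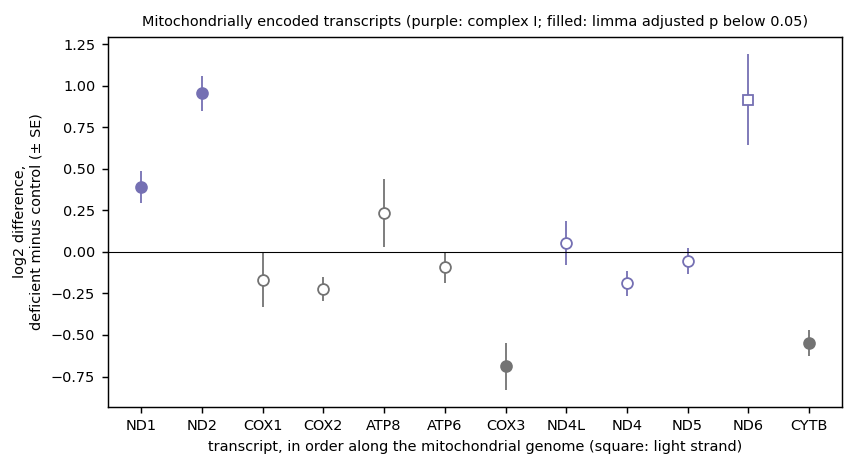
Log2 difference between deficient and control livers (y axis, ± SE, 4 animals a group) for 12 mitochondrially encoded transcripts in the order of their probes along the mitochondrial genome (x axis). ND1 and ND2, the first in order, are called higher, COX3 and CYTB are called lower, and ND6, on the light strand, is at 0.92 with a wide error.

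Genes around complex I were read from gene lists. In the supply of iron-sulfur clusters and flavin, 3 of 15 measured genes were called lower and 0 higher. Over all genes the shares were 6.58% and 4.53%. The median of the 15 was -0.0079, with 7 above zero and 8 below. Hspa9 at 0.42 ± 0.12 (limma adjusted p = 0.0575) and Nfu1 at 0.30 ± 0.09 (0.063) went the other way and missed the threshold. Glrx5, a glutaredoxin that passes on iron-sulfur clusters, fell by 0.89 (SE 0.12, adjusted p = 0.00499), with levels of 13.09, 13.12, 13.25 and 12.63 in control animals 1 to 4 and 12.12, 12.03, 12.39 and 12.00 in deficient animals 1 to 4. The groups did not overlap, and Glrx5 was called in 26 of 27 settings, the exception being without array 3 (adjusted p = 0.0731). Nfs1, the cysteine desulfurase that provides the sulfur, fell by 0.82 (SE 0.20, adjusted p = 0.0388), and Rfk, which makes FMN from riboflavin, by 0.33 (SE 0.090, adjusted p = 0.0481). Of the 12 settings that left out an animal or an array, Rfk was called in 2 (without deficient 2 or array 4) and Nfs1 in 4 (these and without deficient 1 or control 4). With array as a fixed block Glrx5 was called (adjusted p = 0.0368), and Nfs1 (0.111) and Rfk (0.155) were not.

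Of 11 measured genes that deliver electrons to ubiquinone without complex I, 2 were called lower and 0 higher, against 6.58% and 4.53% over all genes. Their median was 0.089, with 7 above zero and 4 below. Etfdh at 0.64 ± 0.24 and Sdhb at 0.32 ± 0.09 were among those above zero, and neither was called. Prodh, proline dehydrogenase, was at -1.43 ± 0.24 (adjusted p = 0.00936) and Sqor, sulfide:quinone oxidoreductase, at -0.48 ± 0.12 (adjusted p = 0.0408). None of the 9 measured complex III subunits encoded in the nucleus was called or passed an unadjusted p of 0.05 by limma, and their median was 0.061. Among 10 complex IV subunits, with a median of 0.17, Cox7a2 was called higher at 0.40 ± 0.11 (adjusted p = 0.0484). Among 15 complex V genes, with a median of 0.039, Atp5if1, the inhibitory factor of ATP synthase, was called higher at 0.39 ± 0.07 (adjusted p = 0.0158). Each was the only call in its list, against 4.53% called higher over all genes. The medians of complexes III, IV and V encoded in the nucleus, from 0.039 to 0.17, thus stood on both sides of that of the Nduf subunits. Prodh was called in 24 of the 27 settings and not without control 3 (adjusted p = 0.0632) or array 3 (0.093). Sqor and Cox7a2 were each called in 8, and Atp5if1 in 16. Without controls 1, 2 or 3 none of these last 3 was called. With array as a fixed block Prodh was called (adjusted p = 0.0404), and Sqor (0.0994), Cox7a2 (0.143) and Atp5if1 (0.0868) were not.

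**Figure D5:**
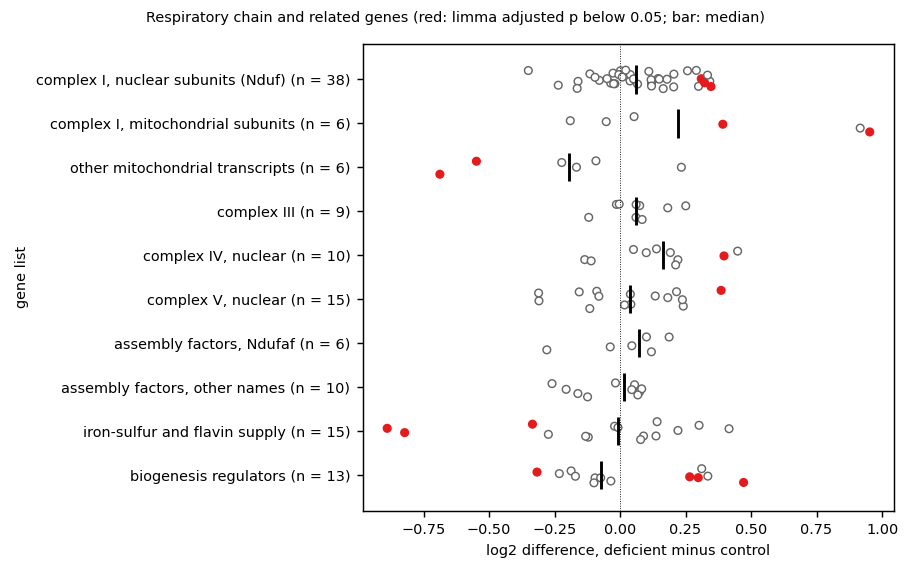
Log2 difference between deficient and control livers (x axis) for each measured gene of 10 lists (y axis), with red points past the adjusted p threshold and bars at the list's median. The row of Nduf subunits leaves out Ndufa4 and holds 3 red points, all above zero. The supply of iron-sulfur clusters and flavin holds 3 red points, all below zero. Open points of both rows lie on both sides of zero.

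Among 13 regulators of mitochondrial genes, 3 were called higher and 1 lower, against 4.53% and 6.58% over all genes. Their median was -0.074, with 5 above zero and 8 below. Esrra, the receptor ERR-alpha, had levels of 11.45, 11.53, 11.55 and 11.35 in control animals 1 to 4 and 12.01, 11.84, 11.99 and 11.93 in deficient animals 1 to 4, with no overlap between groups and a difference of 0.47 ± 0.07 (adjusted p = 0.00668). It was called in 24 of 27 settings, and not without array 3 (adjusted p = 0.0701) or in the 2 fits within arrays, with array as a fixed block or as within-array ratios (0.0535). Ppargc1b, a coactivator of such receptors, was at 0.30 ± 0.07 (adjusted p = 0.035) and Nrf1, a transcription factor of respiratory genes, at 0.27 ± 0.07 (adjusted p = 0.0442). The groups overlapped for Ppargc1b, with a difference of -0.095 within array 1, and did not overlap for Nrf1. Over the 27 settings the difference of Ppargc1b ran from 0.24 to 0.54. Polrmt, the mitochondrial RNA polymerase, was at -0.32 ± 0.08 (adjusted p = 0.0464). Ppargc1b was called in 10, Nrf1 in 8 and Polrmt in 7 of the 27 settings, and none of the 3 without control 1, 2, 3 or 4. With array as a fixed block their adjusted p was 0.135, 0.143 and 0.138.

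Promoters were read because binding sites of such regulators are known from respiratory genes. RefSeq windows of build GRCr8, from 250 bases before to 50 after the start, were matched for 39 of the 43 Nduf genes. They were searched on both strands, beside all 33469 windows. Those windows were not limited to the 14931 genes tested or matched to the Nduf genes, so the shares come from unlike sets. The NRF-1 motif GCGCANGCG was in 10 of the 39 (25.6%) against 5.80% of all windows, the ETS motif CCGGAAG in 8 (20.5%) against 8.75%, the ERR motif AAGGTCA in 4 (10.3%) against 4.61%, and the YY1 motif AAGATGGCG in 7 (17.9%) against 1.73%. The NRF-1 letters nearly mirror themselves, so 1 place can match on both strands and was counted once per window. Among the 3 called genes, Ndufa5 held the NRF-1 motif, Ndufa2 the ETS and YY1 motifs and Ndufs4 the YY1 motif, and none held the ERR motif. The YY1 matches of all 7 genes began after the start, at base 5 in Ndufs4 and base 27 in Ndufa2, so they lay within the transcript. The stretches of 30 bases around a match in each are shown with the motif in capitals. They lie at chr4:53971248-53971277 for Ndufa5, chr2:47794891-47794920 for Ndufs4 and chr18:28631839-28631868 for Ndufa2, all on the minus strand. A match describes the letters and shows no binding.
Ndufa5, NRF-1: cgtatgagctGCGCAGGCGcaaatctctcc
Ndufs4, YY1: tgcccacaggAAGATGGCGgcggtctcaat
Ndufa2, YY1: tttgctagcaAAGATGGCGgccgcaagccg

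Other measures moved with diet or with single animals. Between 59.1% and 65.5% of spots were well above background in a sample and none was saturated. All 6 hepatocyte markers were well above background, and 4 of them, Tf, Ttr, Fgb and Ahsg, were called lower, against 6.58% over all genes. Alb was at -1.01 ± 0.28 (adjusted p = 0.0517) and Apoa1, in the other direction, at 0.35 ± 0.15 (adjusted p = 0.169). The summed normalized intensity of the 6 was 1269400 to 1621800 in controls and 846540 to 1234100 in deficient livers. In these bulk samples fewer hepatocytes and less RNA per cell cannot be told apart. Of 17 skeletal muscle markers with a probe, 8 were well above background in at least 4 samples, and the 17 summed to 2407 to 3165 in controls and 3404 to 19548 in deficient livers. Their median difference was 2.58 on array 1, where deficient 3 lay, and between -0.057 and 0.22 on the others. The marker called higher among the 8, Tnnc2, a troponin of fast muscle, did not share this pattern. Its difference was 2.85 ± 0.19 (limma adjusted p = 0.000472). Within arrays 1 to 4 it was 3.12, 2.93, 2.57 and 2.78, and the groups did not overlap. The sums of the 17 include Tnnc2, at log2 levels of 7.46 to 8.31 in controls and 10.24 to 11.43 in deficient livers. Their separation therefore cannot be read as more muscle RNA in each deficient liver. On array 1 the differences of Ndufs4, Ndufa5 and Ndufa2 were 0.15, 0.0082 and 0.039. Without deficient 3, Ndufs4 was called and Ndufa5 and Ndufa2 were not. Erythroid markers, 5 of 6 well above background with Epb42 not, summed to 300290 to 535600 in controls and 144880 to 371510 in deficient livers. All 5 lay below zero and none was called by limma. The median difference of the 6 was -0.22, -0.14, -1.19 and 0.16 within arrays 1 to 4. Neutrophil markers, 4 of 6 well above background with Ngp and Elane not, summed to 1781 to 2588 in controls and 1227 to 1865 in deficient livers. Of these 4 neutrophil markers, 3 were called lower, against 6.58% over all genes, and Mpo, at 0.055, was not called. The part of these cells in the results on complex I was not tested.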

How the data were processed

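Spot intensities were deposited as scanner output of 2-colour arrays (Agilent Feature Extraction, version 10.7.1.1 by the submitters' processing notes), and probe positions are in build rn4, per the file headers. A table of normalized values on a linear intensity scale was also deposited (medians 183.8 to 192.5), and its log2 values served as an alternative. It followed the log2 mean signal of each sample (r from 0.995 to 0.999), and no source used here states how the authors scaled it. Arrays were paired through identical array data in the deposited files of 2 samples.

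With limma 3.58.1 in R 4.3.3, mean intensities were corrected by normexp (offset 50), without 74 spot values whose local background exceeded 5 times the channel median, then normalized by loess within and Aquantile between arrays. Outlier-flagged spots were left out, and spots of a probe averaged. Probes well above background in at least 4 of 8 samples were kept, and the brightest stood for its gene. Log2 intensities were fitted with diet and dye as terms and array as random block (correlation 0.42), with Benjamini-Hochberg adjustment over 14931 genes. The fit was also run on simulated data, with changes larger than any seen in the Nduf genes, so that run does not bear on theirs. Of the probes, 3795 were renamed through RefSeq (GRCr8).

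Members and lists were chosen with earlier results of these data known. Values in each animal are given for the called Nduf genes, the 3 largest rises and falls, the Ndufaf genes and the core subunits other than 1 that is not reported here, and called members of other lists are named. Alternatives covered background, normalization, filters, blocks, dye, sex, probes, weights, the deposited values and each animal or array left out.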

Additional observations from a re-analysis of the deposited data

Results flagged for a closer look

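Among 88 groups of 4 animals looked at, those of 44 named genes, 2 held 1 animal set far apart from the other 3, and chance does so in about 1 in 20 groups. Ndufs1 in control 1 was at a log2 level of 12.17, whereas the other controls lay between 12.78 and 12.85. The gap was 0.889 of the group's range. Ndufs8 in deficient 1 was at 11.04, whereas the other deficient animals lay between 11.56 and 11.64, a gap of 0.860 of the range. Both genes encode iron-sulfur core subunits, and neither was called.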

How the results depend on the processing

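The count of Nduf genes called higher (3) kept within 1.5 times in 8 of 27 alternatives. It was 1 with processed signals, with high-background spots kept and with loess only, 0 with array as a fixed block, with within-array ratios, without array block, without dye term and with sex as a term, and 9 with sample weights. Without arrays 1, 2, 3 and 4 it was 0, 0, 0 and 6, and leaving out each animal it ran from 0 to 7. The count called lower (0) was 2 with sample weights, 1 without array 4 and from 0 to 2 with an animal left out. The count of mitochondrially encoded subunits called higher (2) was 1 with processed signals, a fixed block, no block, no dye term, sex as a term, within-array ratios, and without array 2 or array 3, and from 1 to 3 with an animal left out. The subunit median (0.067) was 0.12 with quantile normalization over all channels and ran from 0.039 (without control 1) to 0.093 with an animal left out, and the Ndufaf median stayed between 0.054 and 0.19 in all 27. The cause of these changes was not tested. The labels give the animals no shared replicate numbers, and the pairing by array entered as the fixed block and the within-array ratios, which gave the same counts.

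Of the 44 genes for which the alternatives were run, the marker genes not among them, 10 changed sign in some alternative, and none of these is called in the report. With high-background spots kept Ndufaf5 was at -0.018, Ndufs8 at -0.031 and ATP6 at 0.042. With quantile normalization Ndufaf8 was at 0.014, ND5 at 0.021 and ATP6 at 0.055. With the deposited values Ndufaf8 was at 0.049, ND4 at 0.089, ND4L at -0.024 and ATP6 at 0.21. With processed signals Ndufaf8 was at 0.0071. Without array 1 Ndufaf8 was at 0.0040 and Ndufs8 at -0.11. Without array 2 ND4L was at -0.066 and ATP8 at -0.038. Without array 3 Ndufaf5 was at -0.030 and ND4L at -0.014. Without array 4 Ndufs8 was at -0.032 and ATP6 at 0.029. With each animal left out the ranges were -0.023 to 0.12 for Ndufaf5, -0.084 to 0.0046 for Ndufaf8, -0.091 to 0.11 for Ndufs8, -0.012 to 0.23 for Ndufs1, -0.043 to 0.21 for ND4L, -0.0052 to 0.51 for ATP8, -0.17 to 0.0054 for ATP6 and -0.33 to 0.018 for COX1. The alternatives on mitochondrially encoded transcripts were added after seeing the data.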
